A study of Mus musculus with 6 samples.

Results

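The genes described here encode the enzymes that make and recycle tetrahydrobiopterin, a pterin cofactor, together with the protein that regulates the entry step. The 6 genes were named as a set (Gch1, Gchfr, Pts, Spr, Qdpr and Pcbd1), and every probe set annotated to them was taken: 9 of the 45037 probe sets on the array, or 6 of 18193 genes. The genes were chosen from results of these arrays: the signal of Gch1 in cells with and without active BRAF was known when the set was drawn up. All values below are therefore a description, and nothing is supported by the way these genes were found.

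RNA came from melan-a cells, an immortal line of pigment cells (melanocytes) grown from C57BL/6 mouse embryos. Every culture had been transduced with delta-BRAF-ER, a BRAF kinase made constantly active and placed under the control of tamoxifen. BRAF-off is the culture in which it was not activated, BRAF-on the one in which it was, and 4 further cultures had active BRAF together with introduced ZEB2, SNAIL2, TWIST1 or ZEB1. These factors are transcription factors of embryonic development, and the arrays are named here by their labels (the ZEB2 array and so on). No probe set used for the mouse gene of an introduced factor was 2-fold higher than BRAF-on on the array labelled with it. Zeb2 was at a log2 ratio of 0.49 there, its highest signal of the 6 arrays, Snai2 at -0.41, its lowest of the 6, Twist1 at -0.28 and Zeb1 at -0.30. Nothing in the labels says whether these probe sets read the introduced sequences, and these values do not decide if a label is right. Each group had 1 array, the drug's dose and time are not given in the sources used here, and no label names cells given tamoxifen that lack the construct. Effects of the drug or of the culture and effects of active BRAF cannot be told apart. With 1 array per group no difference was tested: each fold compares 2 arrays, and their number limits the precision. In bulk RNA, a change in the number of cells of a type and a change in RNA per cell cannot be told apart.

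Tetrahydrobiopterin is the cofactor of the aromatic amino acid hydroxylases, of the nitric oxide synthases and of alkylglycerol monooxygenase. GTP cyclohydrolase (Gch1) commits GTP to the pathway, 6-pyruvoyltetrahydropterin synthase (Pts) makes the intermediate and sepiapterin reductase (Spr) completes the cofactor. After use it is regenerated by pterin-4a-carbinolamine dehydratase (Pcbd1) and dihydropteridine reductase (Qdpr). Gchfr encodes the feedback regulatory protein, which binds GTP cyclohydrolase and passes on inhibition by the end product and stimulation by phenylalanine. Pigment cells make melanin from the aromatic amino acid tyrosine.

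Gch1, the entry enzyme, varied more over the 6 arrays than 99.6% of the 12040 genes that reached the floor on some array. The floor, 63.7 signal units, is the median of all values, and lower values were set to it before ratios were taken. The signal of Gch1 (probe set 1420499_at) was 65.6 in BRAF-off, 378 in BRAF-on, 171 on the ZEB2 array, 97.7 on the SNAIL2 array, 502 on the TWIST1 array and 1227 on the ZEB1 array. The lowest array was thus BRAF-off, just above the floor, and the highest was the ZEB1 array, 18.7-fold above it. Against BRAF-on, Gch1 was 2.22-fold lower on the ZEB2 array (log2 ratio -1.15), 3.87-fold lower on the SNAIL2 array (-1.95), 1.33-fold higher on the TWIST1 array (0.41) and 3.24-fold higher on the ZEB1 array (1.70). Against BRAF-off, all 5 arrays with active BRAF were higher: besides BRAF-on (log2 ratio 2.53), the ZEB2 array by 2.60-fold, the SNAIL2 array by 1.49-fold and the TWIST1 array by 7.64-fold. These 2 sets of ratios share arrays and are not separate observations.

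A second Gch1 probe set (1429692_s_at) was dimmer and under the floor on 3 arrays. Its signal was 28.6 in BRAF-off, 86.5 in BRAF-on, 42.2 on the ZEB2 array, 47.5 on the SNAIL2 array, 84.5 on the TWIST1 array and 267 on the ZEB1 array. BRAF-off was again lowest and the ZEB1 array highest, and both arrays labelled ZEB2 and SNAIL2 again lay below BRAF-on. The probe sets disagreed on the TWIST1 array, where the dimmer one was at a log2 ratio of -0.03 to BRAF-on. They also placed the ZEB2 and SNAIL2 arrays in opposite order, though on the dimmer one both were under the floor. On the dimmer probe set BRAF-on was at least 1.36-fold above BRAF-off, and the ZEB1 array was 3.08-fold above BRAF-on. With the median of both probe sets, the log2 ratio of BRAF-on to BRAF-off was 1.51 in place of 2.53. A floor at the 60th percentile of all values also gave 1.51, because the BRAF-off signal then lies under it. With the floor added to every signal as a pseudocount, Gch1 on the ZEB2 array was at -0.92 and no longer past 2-fold.

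Gchfr, the regulator of GTP cyclohydrolase, had its lowest and highest signals on the same arrays as Gch1. Its 1 probe set (1435750_at) was at 65.2 in BRAF-off, 178 in BRAF-on, 122 on the ZEB2 array, 73.2 on the SNAIL2 array, 88.4 on the TWIST1 array and 199 on the ZEB1 array. BRAF-on and the ZEB1 array were the highest, and BRAF-off and the SNAIL2 array were close to the floor. BRAF-on was 2.73-fold above BRAF-off. Against BRAF-on, Gchfr was 2.43-fold lower on the SNAIL2 array, 2.01-fold lower on the TWIST1 array, 1.46-fold lower on the ZEB2 array and 1.12-fold higher on the ZEB1 array. On the TWIST1 array Gchfr (log2 ratio -1.01) and Gch1 (0.41) therefore lay on opposite sides of BRAF-on. The -1.01 is only just past 2-fold: it was -0.89 after quantile normalization and -0.81 with arrays centred on their median. With a floor at the 60th percentile (133 signal units), the size of the Gchfr ratio was 0.42 in each of the BRAF, SNAIL2 and TWIST1 comparisons. Of the arrays in these comparisons only BRAF-on reached that floor, so the 0.42 is 1 shared bound that may understate each ratio. With the pseudocount none of the 3 reached 2-fold (0.91, -0.82 and -0.67).

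**Figure D1:**
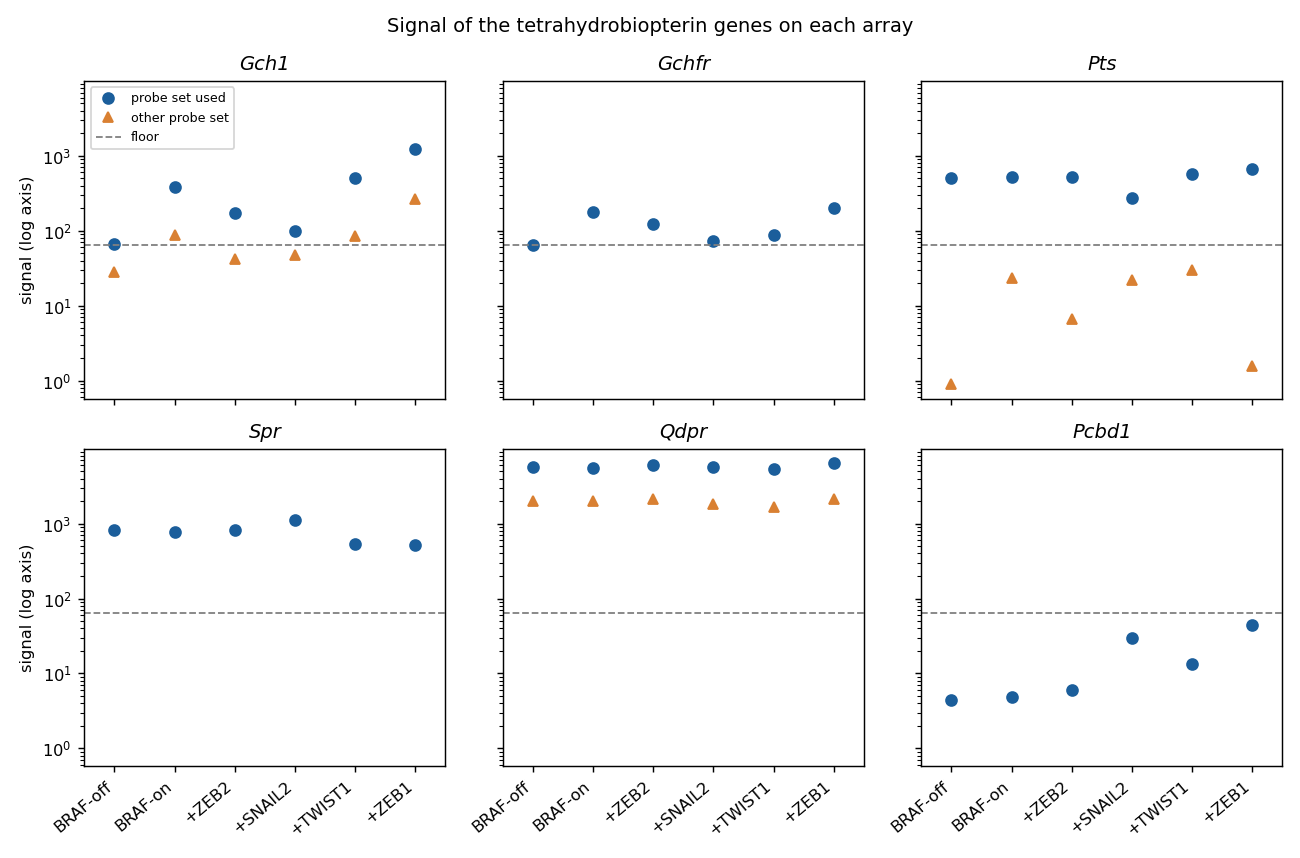
Signal of each probe set of the 6 genes (vertical axis, signal units, log scale, the same in every panel) on each of the 6 arrays (horizontal axis, 1 array per group). Circles are the probe set used for the gene, triangles the other probe set where there is one, and the dashed line is the floor of 63.7. Gch1 runs from 65.6 to 1227, while the Qdpr circles stay between 5297 and 6397.

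Gch1 and Gchfr are the genes of the set past 2-fold between BRAF-on and BRAF-off, so the sequence before their start sites is shown. Both come from RefSeq (build GRCm38.p6), each covering the 250 bases before the annotated start, 5′ to 3′ on the gene's strand. The Gch1 window is chr14:47189414-47189663 on the minus strand and the Gchfr window is chr2:119167538-119167787 on the plus strand. Capitals mark CCAAT boxes and GC boxes (GGGCGG), on either strand.
Gch1: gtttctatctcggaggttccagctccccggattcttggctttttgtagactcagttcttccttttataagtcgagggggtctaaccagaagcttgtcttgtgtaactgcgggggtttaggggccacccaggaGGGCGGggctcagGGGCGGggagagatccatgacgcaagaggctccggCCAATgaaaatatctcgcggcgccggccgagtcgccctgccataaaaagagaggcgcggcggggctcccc
Gchfr: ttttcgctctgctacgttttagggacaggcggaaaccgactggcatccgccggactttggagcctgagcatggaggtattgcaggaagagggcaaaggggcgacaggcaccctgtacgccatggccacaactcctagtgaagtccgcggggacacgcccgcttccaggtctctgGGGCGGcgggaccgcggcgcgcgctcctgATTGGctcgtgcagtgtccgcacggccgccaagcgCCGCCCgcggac

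Each of these windows held 1 CCAAT box and 2 GC boxes. The Gch1 CCAAT box began at position -70 from the start, and that of Gchfr, on the opposite strand, at -47. Of the 32851 promoter windows of this length in the table, 33.8% held CCAAT and 32.7% held GGGCGG on either strand. The E-box, CANNTG, is the kind of site that proteins of the SNAIL, ZEB and TWIST families bind. It occurred in neither window, against 66.2% of all windows, so neither held its forms CAGGTG (17.2% of windows, read on both strands) or CATGTG (12.3%). The AP-1 motif TGANTCA (6.75% of windows) and the CRE motif TGACGTCA (1.55%) were not found in them either. Among the other 4 genes, Pts and Spr had GC boxes but no other motif searched, Qdpr had an E-box (CAGATG at -217), GC and CCAAT boxes, and Pcbd1 had none of the motifs. A match is a description of letters, and no match says only that these letters are not in this window.

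Pts, the enzyme after GTP cyclohydrolase, had its lowest signal on the SNAIL2 array. Its signal (1450660_at) was 508 in BRAF-off, 528 in BRAF-on, 527 on the ZEB2 array, 271 on the SNAIL2 array, 573 on the TWIST1 array and 676 on the ZEB1 array. The SNAIL2 array was 1.95-fold below BRAF-on, which is just under the size counted here. The log2 ratio of -0.96 was -1.02 after quantile normalization, -0.52 with the median of both Pts probe sets and -0.15 with the floor at the 75th percentile. The last is a bound, since the SNAIL2 array signal lies under that floor. BRAF-on and BRAF-off differed by 1.04-fold. A second Pts probe set (1458402_at) was under the floor on all 6 arrays, with signals from 0.90 to 30.3, and gives no ratio.

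Spr, the enzyme that completes the cofactor, ran the other way from Gch1 on the factor arrays. Its signal (1432372_a_at) was 829 in BRAF-off, 763 in BRAF-on, 817 on the ZEB2 array, 1113 on the SNAIL2 array, 534 on the TWIST1 array and 515 on the ZEB1 array. The SNAIL2 array was highest and the TWIST1 and ZEB1 arrays were lowest. No comparison reached 2-fold: against BRAF-on the SNAIL2 array was 1.46-fold higher, the TWIST1 array 1.43-fold lower and the ZEB1 array 1.48-fold lower. BRAF-on was 1.09-fold below BRAF-off.

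Qdpr, the recycling reductase, was the steadiest gene of those measured. Its signal (1437993_x_at) was 5787 in BRAF-off, 5518 in BRAF-on, 6118 on the ZEB2 array, 5716 on the SNAIL2 array, 5297 on the TWIST1 array and 6397 on the ZEB1 array. The highest array was 1.21-fold above the lowest, a range smaller than that of all but 8.47% of genes. A second probe set (1423664_at) lay between 1671 on the TWIST1 array and 2159 on the ZEB2 array, a 1.29-fold range. Pcbd1, the recycling dehydratase, was under the floor on every array, from 4.42 in BRAF-off to 44.0 on the ZEB1 array (1418713_at), so it entered no comparison.

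Of the 5 genes that could be compared, BRAF-on exceeded BRAF-off by 2-fold or more for 2, Gch1 and Gchfr, and fell short of it by that much for none. Over all genes compared, 1.04% were that much higher and 0.384% lower. Since this contrast helped to choose the genes, nothing is read from that difference. Gch1 had the 12th highest log2 ratio of 11200 genes and Gchfr the 51st. The ZEB2 array had 1 of 5 lower than BRAF-on by 2-fold or more, Gch1, and none higher, where 0.583% of all genes were lower and 1.76% higher. The SNAIL2 array had 2 of 5 lower, Gch1 and Gchfr, and none higher, where 6.42% of all genes were lower and 5.61% higher, and Gch1 was the 64th lowest of 11416. The TWIST1 array had 1 of 5 lower, Gchfr, and none higher, where 2.02% of all genes were lower and 2.03% higher. The ZEB1 array had 1 of 5 higher, Gch1, and none lower, where 4.49% of all genes were higher and 3.93% lower, and Gch1 was the 79th highest of 11614. The 4 factor comparisons share the BRAF-on array, whose Gch1 signal helped to choose the genes. Nothing is therefore read from their counts, shares and ranks either.

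The median log2 ratio of the 5 genes was 0.06 for BRAF-on against BRAF-off, and against BRAF-on it was -0.00057 on the ZEB2 array, -0.96 on the SNAIL2 array, -0.06 on the TWIST1 array and 0.21 on the ZEB1 array. The medians over all genes were -0.0017, -0.0048, 0.06, 0.0026 and 0.07 in the same order. The SNAIL2 median is the value of Pts, the middle gene of the 5.

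**Figure D2:**
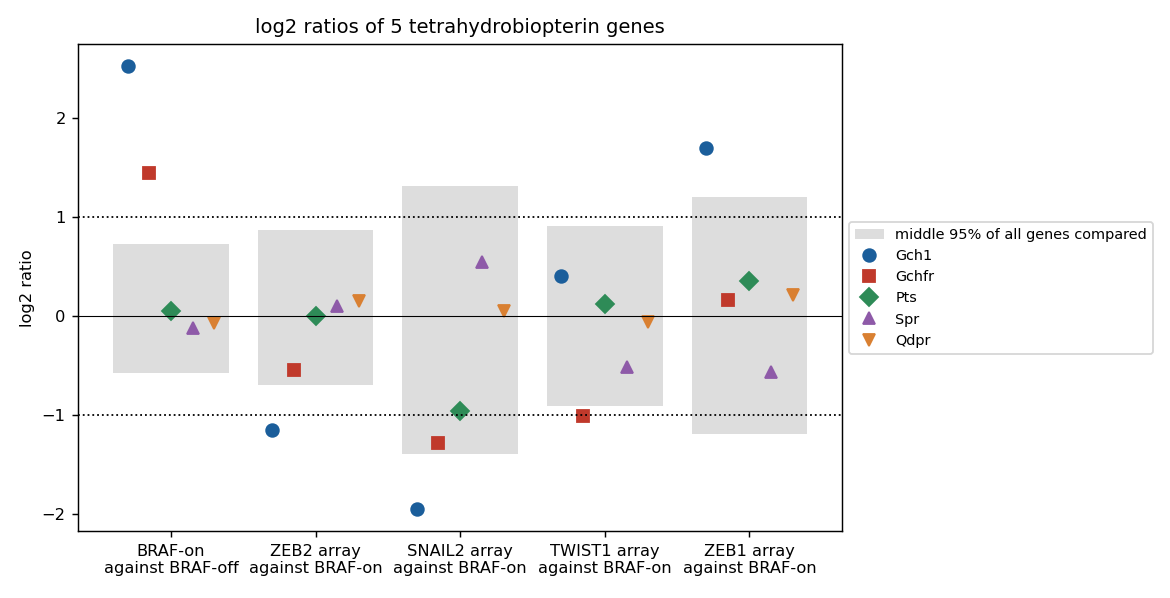
log2 ratio (vertical axis) of the 5 genes measured above the floor in each of the 5 comparisons (horizontal axis). Each symbol is 1 gene, grey boxes span the middle 95% of all genes compared, and dotted lines mark 2-fold. Gch1 lies outside the grey box in 4 comparisons and inside it for the TWIST1 array (0.41), and the symbols of Spr and Qdpr lie inside it in all 5.

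The pigment cell label was checked with 9 melanocyte genes (Tyr, Tyrp1, Dct, Pmel, Mlana, Mitf, Sox10, Pax3 and Kit). All 9 were at or above the floor on every array except the TWIST1 array, where 3 were, Mitf, Sox10 and Pax3. Their summed signal was 91523 in BRAF-off, 67755 in BRAF-on, 115794 on the ZEB2 array, 139293 on the SNAIL2 array, 4941 on the TWIST1 array and 28303 on the ZEB1 array. In each of the 5 comparisons this sum and the Gch1 probe set used moved in opposite directions. The part of this in the Gch1 values was not tested.

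The summed signal of 6 macrophage and leukocyte markers was 1198 on the ZEB1 array, where Gch1 was highest, and between 592 and 731 on the others. Cd68, a lysosomal protein gene, had the largest part in this, at 466 against 128 in BRAF-on (log2 ratio 1.87). Cd68 was also past 2-fold on the SNAIL2 array, where Gch1 was below BRAF-on, at 258 (log2 ratio 1.01). Csf1r (-0.13) and Lyz2 (-0.34) were lower there than in BRAF-on. Ptprc, Adgre1 and Itgam were under the floor on all 6 arrays, the ZEB1 array included. Cd68, Csf1r and Lyz2 were above it on all 6, and each was highest on the ZEB1 array. There Lyz2 was at 527 (log2 ratio to BRAF-on 0.75) and Csf1r at 130 (0.42). The part of these markers in the Gch1 values was not tested. The 6 fibroblast markers summed to 7555 on the TWIST1 array and to between 3587 and 4476 on the others. The 4 keratinocyte markers summed to between 274 and 456, with Krt14 and Krt1 under the floor throughout. The spiked-in poly-A control transcripts were higher on the SNAIL2 array than in BRAF-on on all 24 of their probe sets, by a median of 2.55-fold. They were higher on 23 of 24 on the ZEB2 array (median 1.35-fold) and on the ZEB1 array (1.42-fold), and on 5 of 24 on the TWIST1 array and in BRAF-on against BRAF-off. Their part in the values of Gch1, Gchfr and Pts was not tested.

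The enzymes that use tetrahydrobiopterin were under the floor for the most part. Of 8 such genes with a probe set, the hydroxylase chaperone gene Dnajc12 included, 3 reached the floor. Over all genes, 12040 of 18193 reached it on some array. The hydroxylase genes Th, Tph1 and Tph2, the inducible nitric oxide synthase gene Nos2 and Agmo, for alkylglycerol monooxygenase, were under it on all 6 arrays. None of the 3 that reached it was 2-fold apart between BRAF-on and BRAF-off, where 1.04% of all genes were higher and 0.384% lower. Nos3, the endothelial nitric oxide synthase gene, was dim. It was at 68.9 in BRAF-off, 64.1 in BRAF-on, 131 on the ZEB2 array, 150 on the SNAIL2 array, 80.8 on the TWIST1 array and 155 on the ZEB1 array. It was at least 2-fold above BRAF-on with ZEB2 (log2 ratio 1.03), SNAIL2 (1.22) and ZEB1 (1.27). Over all genes, 1.76%, 5.61% and 4.49% were that much higher in the same order. The BRAF-on signal of Nos3 was its lowest, just above the floor, which limits these folds. Dnajc12 was at 299 in BRAF-on and 624 on the ZEB1 array, a log2 ratio of 1.06, and Nos1, the neuronal synthase gene, was within 2-fold in every comparison (lowest on the TWIST1 array, -0.98).

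None of the 4 genes of the side and salvage reactions with a probe set was counted as 2-fold apart in any of the 5 comparisons. Over all genes, the share that much higher or lower ran from 0.384% to 6.42% by comparison and direction, so nothing is read from this count. The 3 genes with the largest ratios were Akr1c13, an aldo-keto reductase, on the SNAIL2 array (0.98), the carbonyl reductase gene Cbr3 on the ZEB2 array (-0.95, a bound that may understate it, since the signal of 54.1 there was under the floor and that in BRAF-on was 123) and Pcbd2, a second dehydratase, on the ZEB1 array (0.76). Genes that supply GTP, the starting material, had 11 of 12 listed genes measured. None was 2-fold apart in the comparisons of BRAF-on with BRAF-off, ZEB2, SNAIL2 or TWIST1, and the same all-gene shares stand beside this count. On the ZEB1 array 1 was lower, Ppat, which starts purine synthesis (log2 ratio -1.06), where 3.93% of all genes were that much lower, and the median of the 11 was -0.60 against 0.07 for all genes. Ahsa1, an HSP90 co-chaperone listed as a regulator, stayed between -0.40 and 0.14.

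The genes next to Gch1 on the chromosome were looked at for the same pattern. Of the 3 protein-coding neighbours on each side in the gene table, 5 had a probe set (Gmfb, Cgrrf1, Samd4, Wdhd1 and Socs4). None of them was 2-fold apart between BRAF-on and BRAF-off or on the ZEB2, SNAIL2 or TWIST1 arrays. Over all genes, the share that much higher or lower ran from 0.384% (lower, BRAF-on against BRAF-off) to 6.42% (lower, SNAIL2 array). Nothing is therefore read from this count. On the ZEB1 array, where Gch1 was higher, the replication gene Wdhd1 was lower, at 676 against 1564 in BRAF-on (log2 ratio -1.21), as 3.93% of all genes were by 2-fold or more.

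The genes whose signal followed Gch1 most closely over the 6 arrays were named by Pearson's r of log2 signal, with values under the floor raised to it. The search covered 3809 other genes with a range of at least 1 log2 unit, clone and model names left out. The 5 highest were Hao1 (r = 0.995), a hydroxyacid oxidase gene, Egr1 (0.992), an immediate early transcription factor gene, Evi2a (0.991), Spink2 (0.990), a protease inhibitor gene, and Tnc (0.989), for the matrix protein tenascin C. Evi2a was at 54.5 in BRAF-off, 533 in BRAF-on, 293 on the ZEB2 array, 133 on the SNAIL2 array, 737 on the TWIST1 array and 1840 on the ZEB1 array. Egr1 had the same order of arrays over a smaller range, from 1051 in BRAF-off to 3242 on the ZEB1 array. The most opposite were Cpa6 (r = -0.993), a carboxypeptidase gene, Bpgm (-0.973), for bisphosphoglycerate mutase, and Kifc5b (-0.972), a kinesin gene. An r of at least 0.9 was reached by 213 of the 3809 genes (5.59%), and all 6 points come from the same 6 arrays, so these values only describe them.

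**Figure D3:**
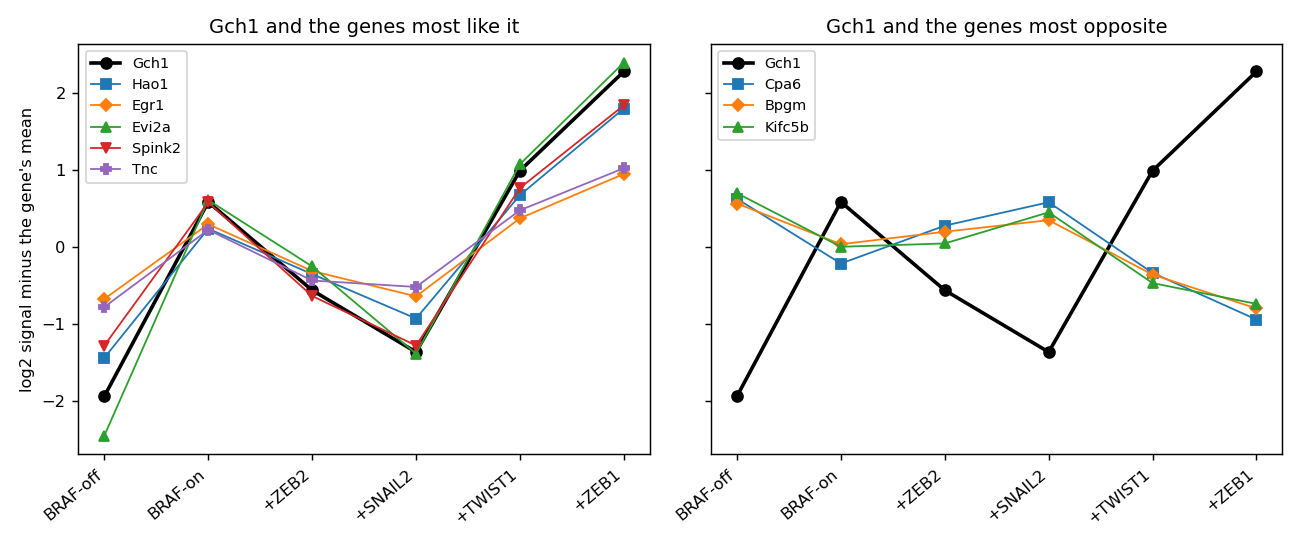
log2 signal of each gene, with values under the floor raised to it, minus its own mean over the 6 arrays (vertical axis), by array (horizontal axis, 1 array per group). The left panel shows Gch1 with the 5 genes most like it and the right panel Gch1 with the 3 most opposite, and lines only join the points of a gene. Gch1 is lowest in BRAF-off and highest on the ZEB1 array, as are the 5 genes of the left panel, though Spink2 sits at the floor both in BRAF-off and on the SNAIL2 array.

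Within the set, r over the 6 arrays was 0.80 between Gch1 and Gchfr, 0.66 between Gch1 and Pts and -0.85 between Gch1 and Spr. Pts and Spr were at -0.86, Gchfr and Pts at 0.58 and Gchfr and Spr at -0.51. The synthesis genes after Gch1 thus did not move with it as a block: on the ZEB1 array Gch1 was at a log2 ratio of 1.70 to BRAF-on, Pts at 0.36 and Spr at -0.57. With the median of both Pts probe sets, of which 1 was under the floor throughout, Pts was at -0.81 there.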

How the data were processed

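Total RNA of 6 cultures, 1 array each, was amplified by a GeneChip 3' IVT kit, per the labels' protocols. The authors deposited signal intensity on a linear scale, which the submitters' processing notes tie to MAS5 and Affymetrix Expression Console 1.1. Each array's mean signal without its highest and lowest 2% was 500, as tested on the values. Of 45101 probe sets, 64 were controls, 34945 had 1 gene symbol in the platform annotation, 932 had several and 9160 none, and only those with 1 were used. No probe set of the 6 genes had several symbols. Symbols were updated by Entrez number through a RefSeq table (GRCm38.p6), which held 34741 of them.

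Of several probe sets for 1 gene, the one brightest on average (mean log2 signal) stood for it. Values under the floor (63.7) were raised to it, and a gene was compared where at least 1 of the 2 arrays reached it. Between 10611 and 11269 of 18193 genes did so per array. Calls are by size (2-fold) alone. Named were the 6 genes, listed genes at least 2-fold apart (otherwise up to 3 by size), markers, the Gch1 neighbours, and the 5 most like and 3 most opposite to Gch1. Some listed genes are not reported here. Other genes of these lists named above were chosen after their values were seen. Genes and lists were chosen with earlier results of these data known. The 9 alternatives were other scalings, floors, probe set rules and 3-fold. Python 3.11.15, numpy 2.4.6, pandas 2.3.3 and matplotlib 3.10.9 were used.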

Additional observations from a re-analysis of the deposited data

How the results depend on the processing

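The number of genes of the set at least 2-fold apart was 2 for BRAF activation, 1 on the ZEB2 array, 2 on the SNAIL2 array, 1 on the TWIST1 array and 1 on the ZEB1 array. For BRAF activation it was 1 with the floor at the 60th percentile, with the floor as a pseudocount or at 3-fold. It was 0 with the floor at the 75th percentile, which neither Gch1 nor Gchfr reached in BRAF-off or BRAF-on. On the ZEB2 array it was 0 with the floor at the 75th percentile, with the pseudocount (Gch1 at -0.92) or at 3-fold. On the SNAIL2 array it was 1 with the floor at the 60th percentile, with the pseudocount or at 3-fold, and 0 with the floor at the 75th percentile. It was 3 under quantile normalization, with Pts lower, or without a floor, with Pcbd1 higher (29.8 against 4.84, both under the main floor). On the TWIST1 array it was 0 under quantile normalization, centring, both higher floors, the pseudocount and 3-fold, and 2 without a floor. On the ZEB1 array it was 2 without a floor. With the floor at the 75th percentile (476 signal units), Gchfr entered no comparison and Gch1 only those of the TWIST1 and ZEB1 arrays. The counts of 0 there for BRAF activation, ZEB2 and SNAIL2 therefore cover neither gene. No log2 ratio past 2-fold changed sign among the 187 that could be recomputed. Smaller ones did: with the median of both probe sets, Pts was at -0.81 on the ZEB1 array in place of 0.36. Centring gave Pts -0.14 for BRAF activation in place of 0.06. The median of both probe sets also gave Pts 0.81 for BRAF activation and -0.81 on the ZEB2 array, where its sign stayed the same. The dimmer Pts probe set in that median was under the floor on every array.

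Centring arrays on their median moved the median of all genes to -0.20 for BRAF activation, 0.14 on the SNAIL2 array and 0.19 on the TWIST1 array. It left 47.7% of BRAF calls higher in place of 73.0%, 57.4% in place of 46.7% on the SNAIL2 array and 68.8% in place of 50.1% on the TWIST1 array. The Gch1 log2 ratios were then 2.33, -1.87 and 0.60. The share of all genes at least 2-fold higher with BRAF activation ran from 0.208% (floor at the 75th percentile) to 14.2% (no floor), and lower from 0.0446% (3-fold) to 6.38% (no floor). At the high end without a floor, and at the low end with 3-fold as the size that counts (lower on the TWIST1 array: the floor at the 75th percentile), higher and lower shares ran from 0.221 to 9.44% and 0.00883 to 9.96% on the ZEB2 array, 1.36 to 12.3% and 1.54 to 14.7% on the SNAIL2 array, 0.635 to 8.95% and 0.656 to 13.6% on the TWIST1 array, and 0.964 to 12.6% and 0.732 to 11.2% on the ZEB1 array. The cause of these moves was not tested. Signals close to the floor, those of Gch1 and Gchfr in BRAF-off among them, limit the folds against them.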
